A study of Prunus avium with 27 samples.

Results

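The 187 genes described here had their lowest RNA level in December among 3 winter dates, in flower buds of the sweet cherry cultivar Burlat. They were chosen from the measured values. The rule took mean TPM (transcripts per 1000000) per date and required a fall of at least 1 log2 unit from October to December and a rise of at least 1 log2 unit from December to January, both on the log2(TPM + 1) scale, with at least 5 TPM at the highest date. It was applied to the 28087 identifiers that begin with PRUPE, of 29449 in all, and 15551 of these reached 5 TPM. The selected genes are thus 1.2% of the genes that could have met both limits. "Restored in January" holds for only some of them: the January mean was under 50% of the October mean for 61 of the 187 and between 80% and 120% of it for 54. It was below the October mean by any amount for 147. The shares over all genes were not computed for these counts. The 187 are therefore called here the genes with a December minimum.

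Buds were taken on 21 October 2014, 5 December 2014 and 27 January 2015, 45 and 53 days apart, and the labels give the same branches as the source of RNA and of chromatin. October and December buds are labelled dormant and January buds non-dormant, so an effect of dormancy and an effect of the date cannot be told apart. RNA was sequenced in 3 libraries per date, and histone H3 trimethylated at lysine 4 (H3K4me3) was measured by chromatin immunoprecipitation in 2 libraries per date. Whether the replicates are separate trees is not stated, so the p-values cover only the spread among these libraries, which may be technical. In whole buds, fewer cells of a type and less RNA per cell cannot be told apart.

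Flower buds of temperate fruit trees pass the winter in dormancy, in which growth inside the bud is arrested. A long period of cold is needed before buds can respond to warmth again, and gene activity is remodelled over that period. H3K4me3 marks the first part of genes that are being transcribed, where its level usually follows transcription. The tables pair the identifiers with no gene names, and 0 of them matched an entry among the 37283 genes that RefSeq lists for sweet cherry. No role is therefore given for any gene, and markers of bud tissues and pathway lists could not be looked up.

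The median December level of the 187 genes was 22.3% of the October level, and the median January level was 72.5% of it. Median means over the genes were 30.5 TPM in October, 7.23 TPM in December and 21.1 TPM in January. October means ran from 1.25 to 984 TPM, with 43 genes at 100 TPM or more and 36 under 10 TPM. These values chose the genes and are given as a description. Together the genes held 16716, 16322 and 15832 TPM in the October libraries, 3422, 3297 and 3443 TPM in the December libraries, and 8895, 9049 and 10439 TPM in the January libraries. Libraries of one date lay close together in this sum and the dates did not overlap.

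The December libraries lay below all October and January libraries for 172 of the 187 genes, against 13% of all 15551 genes at 5 TPM or more. For the other 15 at least 1 December library overlapped another date. In limma with Benjamini-Hochberg adjustment, 180 of the 187 were lower in December than October (background, the share of all 18384 genes tested, 31.6%) and 172 were higher in January than December (background 18.5%). Both calls were made for 171. Since the rule used these contrasts, the counts say only how the chosen means sit against the replicate spread.

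**Figure D1:**
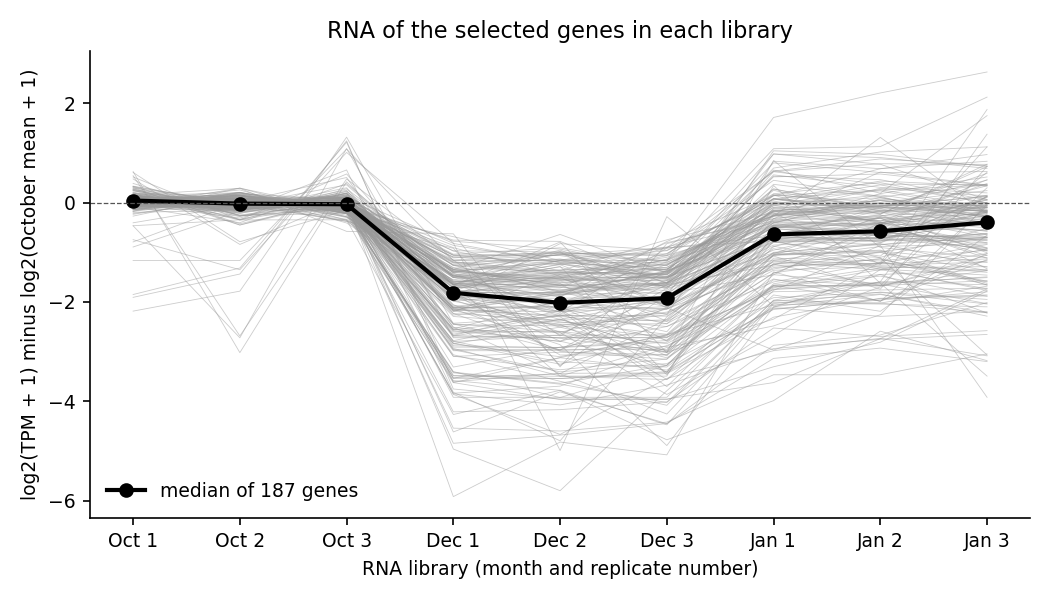
RNA of the 187 genes in each of the 9 libraries, as log2(TPM + 1) minus the log2 of the October mean plus 1. Grey lines are genes and the black line is their median: the December libraries are low throughout, and the January libraries lie between December and October at the median.

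The fall from October to December had a median of -1.86 log2 units (down to -5.20), and the rise to January a median of 1.35 (up to 4.28). The fall in TPM was 8-fold or more for 59 genes. Both steps reached 2 log2 units for 14 genes and 3 log2 units for 3 genes. At the limit on the fall, PRUPE_ppa015096mg (scaffold 6, 8399054 to 8401814) and PRUPE_ppa019905mg (scaffold 5, 3706914 to 3708063) changed by -1.003 and -1.004. PRUPE_ppa015105mg and PRUPE_ppa005318mg changed by -0.998 and -0.997 and stayed outside. At the limit on the rise, PRUPE_ppa008899mg (1.002) and PRUPE_ppa013627mg (1.004) were inside, and PRUPE_ppa024899mg (0.999) and PRUPE_ppa011476mg (0.999) outside. Abundant genes lie just outside too: PRUPE_ppa024899mg had means of 1308, 518 and 1037 TPM. At the floor of 5 TPM, PRUPE_ppa025524mg (highest mean 5.05 TPM) and PRUPE_ppa009560mg (5.18 TPM) were inside, and PRUPE_ppa002187mg (4.98 TPM) and PRUPE_ppa024646mg (4.97 TPM) outside.

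The 6 genes with the highest mean over all libraries show how far the return to October varied. PRUPE_ppa010785mg (scaffold 1, 11586229 to 11589308), the most abundant, had 995, 1027 and 931 TPM in the October libraries, 325, 332 and 329 TPM in December and 716, 626 and 868 TPM in January. Its January libraries lay between the other dates, without overlap. PRUPE_ppa006924mg (scaffold 7, 19053939 to 19056427) had 716, 691 and 654 TPM in the October libraries, 196, 215 and 201 TPM in December and 489, 459.5 and 553 TPM in January, in the same order. PRUPE_ppa013781mg (scaffold 6, 5496740 to 5497232) had 458, 452 and 491 TPM in the October libraries, 167, 131 and 203 TPM in December and 342, 386 and 517 TPM in January, and its January and October libraries overlapped. PRUPE_ppa011342mg (scaffold 6, 27773013 to 27773837) also overlapped in January, with 353, 374 and 331 TPM in the October libraries, 125, 114 and 139 TPM in December and 257, 263 and 365 TPM in January. The remaining pair stayed far below October. PRUPE_ppa002641mg (scaffold 2, 22075054 to 22077889) had 530.3, 528 and 537 TPM in the October libraries, 61.2, 64.97 and 62.9 TPM in December and 158, 174 and 186 TPM in January. PRUPE_ppa008295mg (scaffold 4, 1383232 to 1385600) had 677, 585 and 608 TPM in the October libraries, 52.5, 52.5 and 56.3 TPM in December and 125, 163 and 171 TPM in January, so its January mean was 24.6% of the October mean, against 88.9% for PRUPE_ppa013781mg.

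The following 6 genes had the largest steps in both directions, taking the smaller of the fall and the rise. PRUPE_ppa013980mg (scaffold 3, 17445858 to 17446271) stood first, with 135, 111 and 129.9 TPM in the October libraries, 1.09, 3.47 and 2.74 TPM in December and 47.1, 30.8 and 119 TPM in January. Its neighbour PRUPE_ppa013990mg (scaffold 3, 17447232 to 17447614) had 56.2, 49.02 and 59.05 TPM in the October libraries, 0.788, 0 and 3.03 TPM in December and 14.3, 11.2 and 34.3 TPM in January. In both genes the January replicate 3 library was more than 2 times the next January library. PRUPE_ppa021317mg (scaffold 2, 23427501 to 23427994) had 13.9, 23.6 and 42.8 TPM in the October libraries, 0.966, 0 and 4.63 TPM in December and 15.05, 12.2 and 41.4 TPM in January, with a wide spread within October and within January. PRUPE_ppa014191mg (scaffold 7, 20620204 to 20620915) had 95.8, 106 and 85.2 TPM in the October libraries, 14.0, 17.9 and 11.2 TPM in December and 76.3, 91.7 and 94.3 TPM in January, and its January mean lay within the October range. PRUPE_ppa010081mg (scaffold 4, 3727961 to 3728810) had 264, 269 and 220.0 TPM in the October libraries, 22.8, 15.6 and 24.98 TPM in December and 115, 111 and 129 TPM in January. PRUPE_ppa014040mg (scaffold 3, 17436598 to 17437449) had 48.9, 49.01 and 55.4 TPM in the October libraries, 8.16, 3.78 and 9.25 TPM in December and 35.2, 31.9 and 44.1 TPM in January, and in both of these last genes the 3 dates were separate.

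In December 17 of the 187 genes had a mean of 1 TPM or less, and 3 were listed at 0 in all 3 December libraries. These were PRUPE_ppa016844mg, with means of 1.25 and 9.55 TPM in October and January, PRUPE_ppa019653mg (5.60 and 3.33 TPM) and PRUPE_ppa017601mg (6.76 and 3.52 TPM); the latter pair was singled out after the values were seen. All 3 are low at every date, and depth behind TPM is unknown, so no fold is given against these zeros.

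January against October was set no limit by the rule, although the same libraries entered it. Of the 187 genes, 93 were lower in January than in October and 10 higher, in limma with Benjamini-Hochberg adjustment over all 18384 genes tested, and 84 were not called. The 103 calls compare with 61.1% of all genes tested. The background was 29.4% lower and 31.7% higher, so the share lower among the selected genes was above it and the share higher below it. However, the change from October to January is the sum of the fall and the rise on which the genes were chosen. These counts, and those by libraries below, are therefore a description and not independent of the rule. The median change was -0.46 log2 units over the 187 genes and 0.03 over all genes tested. By libraries, all 3 January values lay below all October values for 99 genes (background 31.2%), overlapped for 74 and lay above for 14 (background 38.1%). The January mean was under 25% of October for 17 genes, under 50% for 61, between 80% and 120% for 54, and above 120% for 22. It fell inside the range of the October libraries for 37.

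**Figure D2:**
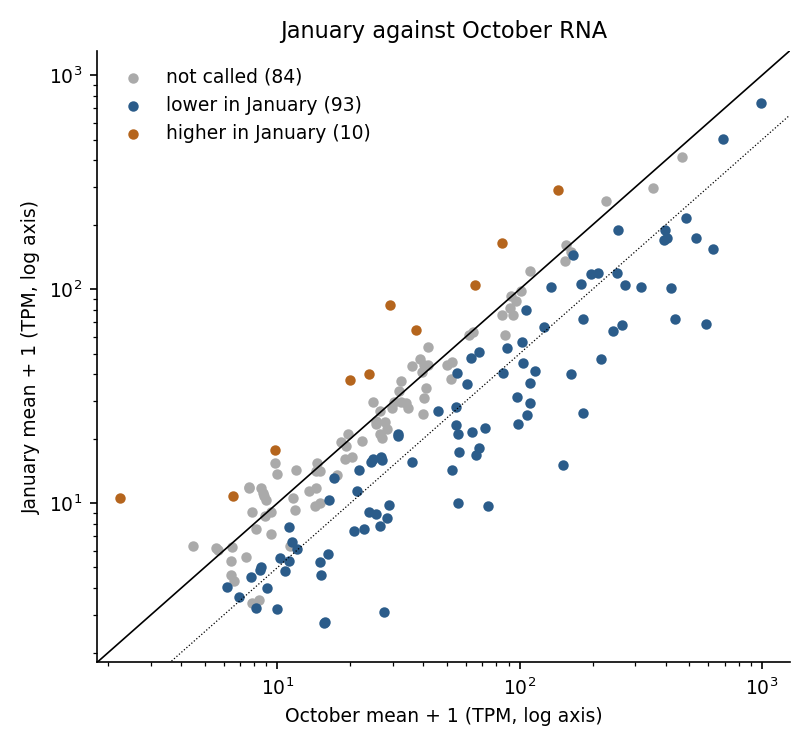
January mean against October mean of each of the 187 genes, each plus 1 TPM on log axes, coloured by the limma call at an adjusted p under 0.05. The solid line marks equal values and the dotted line a 2-fold lower value: 93 genes are called lower in January, 10 higher, and 84 are not called.

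The 4 genes that recovered least were lower in January than October in limma. They were picked on this change in the same libraries, so the direction was set by the pick and the calls are a description. PRUPE_ppa010426mg (scaffold 6, 22193337 to 22195726) had 151, 148 and 149.8 TPM in the October libraries, 5.46, 5.21 and 6.03 TPM in December and 12.6, 12.6 and 17.2 TPM in January. PRUPE_ppa009439mg (scaffold 2, 19554547 to 19556019) had 615, 576 and 564 TPM in the October libraries, 19.4, 21.8 and 25.8 TPM in December and 65.6, 75.9 and 62.7 TPM in January. From December they rose by 1.21 and 1.56 log2 units, and their December means were 3.72% and 3.82% of October. PRUPE_ppa013704mg (scaffold 5, 15784678 to 15785345) had 38.2, 20.5 and 20.6 TPM in the October libraries, 0.423, 0.995 and 0 TPM in December and 0.727, 3.55 and 2.02 TPM in January, and PRUPE_ppa024512mg (scaffold 5, 17050961 to 17054138) had 74.2, 68.7 and 75.3 TPM in the October libraries, 4.06, 1.897 and 5.33 TPM in December and 8.32, 10.1 and 7.68 TPM in January. On the log2(TPM + 1) scale the change from October to January was -3.33 (SE 0.12) for PRUPE_ppa010426mg, -3.09 (SE 0.10) for PRUPE_ppa009439mg, -3.19 (SE 0.39) for PRUPE_ppa013704mg and -2.93 (SE 0.24) for PRUPE_ppa024512mg. The limma adjusted p (Benjamini-Hochberg) was 1.62e-08, 9.01e-09, 4.91e-05 and 3.34e-06 in that order.

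The 4 genes highest in January relative to October overshot it. These too were picked on the change that limma tested, in the same libraries, so their calls are a description. PRUPE_ppa016844mg (scaffold 2, 22257149 to 22257359) had 0, 0 and 3.74 TPM in the October libraries, 0, 0 and 0 TPM in December and 6.37, 9.37 and 12.9 TPM in January. PRUPE_ppa012723mg (scaffold 8, 13082336 to 13083459) had 29.9, 29.2 and 25.2 TPM in the October libraries, 11.2, 13.04 and 11.8 TPM in December and 60.7, 62.6 and 126 TPM in January. PRUPE_ppa011156mg (scaffold 1, 34751159 to 34752675) had 86.1, 81.1 and 82.9 TPM in the October libraries, 18.8, 22.4 and 26.7 TPM in December and 135, 169.9 and 182 TPM in January. In these 3 genes all January libraries lay above all October libraries. PRUPE_ppa013711mg (scaffold 7, 21042801 to 21044707) had 130.4, 129 and 170.0 TPM in the October libraries, 32.1, 40.2 and 53.99 TPM in December and 226, 163 and 484 TPM in January, and 1 January library lay below the highest October library. Changes from October to January were 2.60 (SE 0.52), 1.45 (SE 0.23), 0.94 (SE 0.13) and 0.88 (SE 0.33) log2 units in that order, with limma adjusted p (Benjamini-Hochberg) of 0.00148, 3.42e-04, 1.33e-04 and 0.0407. The size for PRUPE_ppa016844mg, with 2 October libraries at 0, depends on the pseudocount and was 4.78 with one of 0.1. That for PRUPE_ppa013711mg was 0.43 without January replicate 3. The call of PRUPE_ppa013711mg was lost with library medians aligned (adjusted p 0.0639, limma), with quantile normalization (0.0585), without a filter on low values (0.154) and without 5 single libraries: October replicate 1 (0.0978) or 2 (0.0986), December replicate 2 (0.0537), and January replicate 1 (0.0517) or 3 (0.108). The range over its alternatives was 0.005197 to 0.154.

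Single libraries carried part of the pattern. January replicate 3 exceeded the next January library more than 2 times, at 5 TPM or more, for 13 of the 187 genes, against 1.18% of all genes at 5 TPM or more. October replicate 3 did so for 6 of the 187, against 0.977%, and the other 7 libraries for at most 2 each. Among the 6 were PRUPE_ppa005059mg, with 3.33, 5.27 and 35.3 TPM in October, and PRUPE_ppa009417mg, with 3.13, 4.72 and 35.7 TPM. Among the 13 was PRUPE_ppa008642mg, with 3.48, 2.27 and 26.9 TPM in January; these 3 genes were picked after their values were seen. Leaving out each RNA library in turn, the rule chose 180 to 233 genes, and 118 of the 187 were chosen every time. The other 69 dropped out without at least 1 library.

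The selected genes were short and some were neighbours. Their median length in the tables was 1450 bp, against 2705 bp over all genes at 5 TPM or more and 1923 bp over the 1021 genes that fell as much by December and then stayed within 0.5 log2 units. Of the 187, 14 (7.49%) lay next to another selected gene in the order of PRUPE genes along a scaffold, in 7 pairs, while 224 of the other 15364 genes at 5 TPM or more (1.46%) lay next to one. Near-identical neighbours can share reads, and the identifiers give no means to check this, so the paired values are uncertain as separate measurements. PRUPE_ppa010099mg (scaffold 4, 3725837 to 3726902) and PRUPE_ppa010081mg lay 1059 bases apart, and the former had 419, 443 and 349 TPM in the October libraries, 36.97, 31.5 and 40.9 TPM in December and 172, 168 and 175 TPM in January. Both genes of that pair had separate dates, with January near 42.5% and 47.1% of October. PRUPE_ppa008080mg (scaffold 1, 38509068 to 38510849) and PRUPE_ppa019992mg (scaffold 1, 38540867 to 38542243) had means over the 3 dates of 97.6 ± 11.4, 6.67 ± 1.56 and 22.5 ± 2.07 TPM and of 162 ± 20.3, 14.9 ± 2.76 and 39.1 ± 6.17 TPM (mean ± SD, n = 3). PRUPE_ppa019028mg (scaffold 7, 19045306 to 19047038), beside PRUPE_ppa006924mg, stood at 24.4 ± 3.11, 3.35 ± 0.405 and 7.88 ± 2.51 TPM. On scaffold 203 both genes that reached 5 TPM were selected, but they were not next to each other in gene order and are not among the 7 pairs. PRUPE_ppa022969mg had 109 ± 11.2, 11.02 ± 1.17 and 35.4 ± 1.56 TPM and PRUPE_ppa012892mg 54.98 ± 5.03, 6.73 ± 1.81 and 16.4 ± 3.44 TPM. Both were singled out after the values were seen.

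One stretch of scaffold 3, from 17415411 to 17447614, held 5 of the selected genes among 11 genes over 32203 bases. It was singled out after the values were seen and has no test. PRUPE_ppa014037mg (scaffold 3, 17415411 to 17416280) had 31.01, 33.2 and 36.2 TPM in the October libraries, 9.98, 6.09 and 8.07 TPM in December and 25.01, 18.7 and 36.4 TPM in January, with December below both other dates. PRUPE_ppa025524mg (scaffold 3, 17432460 to 17432733) had 5.84, 4.03 and 4.18 TPM in the October libraries, 0.658, 1.55 and 2.06 TPM in December and 3.41, 4.21 and 7.53 TPM in January, a low level at every date. PRUPE_ppa014040mg, PRUPE_ppa013980mg and PRUPE_ppa013990mg are described above. Of the 11 genes, 7 reached 5 TPM at some date. A lower mean in December than October was found for 10, a count that includes the 5 chosen for a fall. It also includes PRUPE_ppa024783mg (0.284 and 0 TPM in October and December) and PRUPE_ppb019368mg (3.02 and 2.98 TPM). The share over all genes was not computed, so the count of 10 is a description only. PRUPE_ppa014028mg missed the limit on the rise, at 0.95 log2 units, with means of 13.1, 1.40 and 3.65 TPM, whereas PRUPE_ppa015571mg had overlapping dates, with means of 21.3, 14.3 and 14.9 TPM. PRUPE_ppa017435mg was listed at 0 in all libraries and could show no dip.

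**Figure D3:**
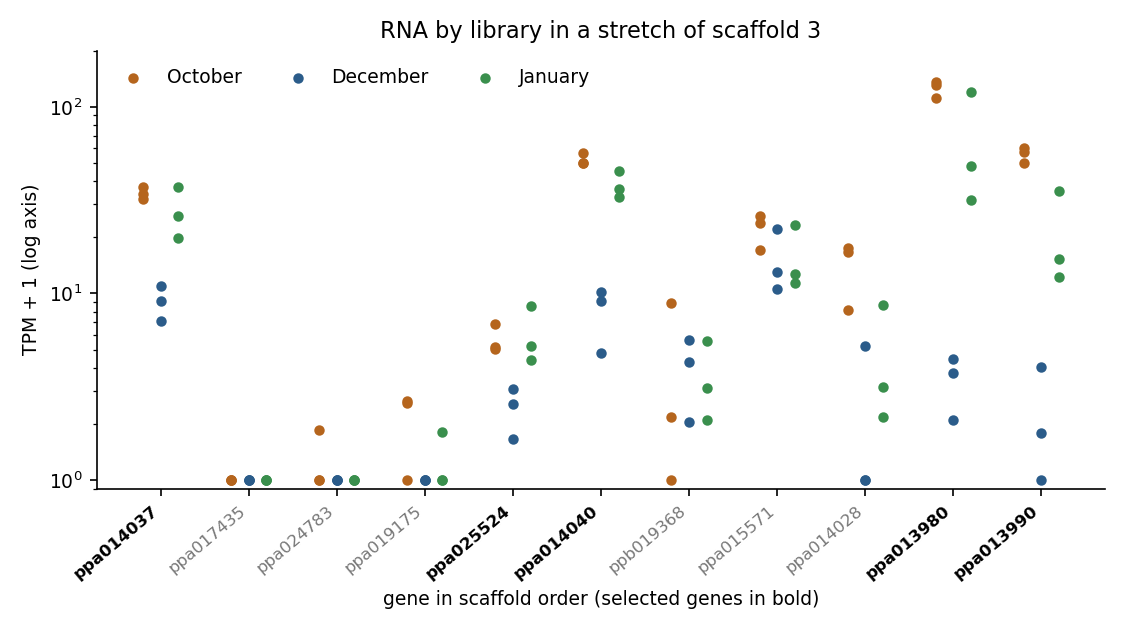
RNA in each library for the 11 genes of the scaffold 3 stretch in scaffold order, as TPM + 1 on a log axis, with the 5 selected genes in bold. In the selected genes the December points lie below the others, and PRUPE_ppa013980mg shows the widest gap, from 111 TPM or more in October to 3.47 TPM or less in December.

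H3K4me3 was measured in other libraries than those the rule used. It was read in windows of 2000 bp around each gene start, from 500 bp before it to 1500 bp after it. Of the 187 genes, 160 had a window of their own, 27 lay in longer regions shared with other genes, and 121 had enough signal to be tested (at least 10 in at least 2 libraries). That is 75.6% of those with a window, against 86.1% of all genes at 5 TPM or more. The share was 77.1% for the 1021 genes that fell and stayed low. It was 79.3% for the 72 genes that peaked in December, by the same limits with the signs reversed. For 57 of the 121 the gene is shorter than the part of the window laid over it, so the window runs past its end. The signal of the selected genes was lower than over all genes at 5 TPM or more. Their library medians were 85.7 and 98.5 in October, 48.8 and 60.8 in December, and 64.9 and 54.4 in January, against 158 to 194. A low signal was not particular to them. The genes that fell and stayed low had medians of 83.7 and 89.6 in October, 53.8 and 62.3 in December, and 46.5 and 42.4 in January. Those that peaked in December had 67.3 and 75.3, 106 and 116, and 86.9 and 78.1 at the same dates. The other 39 windows of the selected genes fell under the filter, and 16 of them stayed under a signal of 1 in all 6 libraries. Those 39 genes had a median October level of 14.2 TPM, against 38.9 TPM for the 121 tested.

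By December the mark had fallen at 35 of the 121 tested genes and risen at 0, in limma with Benjamini-Hochberg adjustment over all 15360 regions tested. The background was 2.55% lower and 4.5% higher. The deposited signal is in whole steps, taken as reads (recovered reads). The edgeR test on them called 29 lower and 0 higher with the deposited scaling (background 1.68% lower), and 66 lower and 1 higher with TMM (trimmed mean of M values) scaling (background 10% lower). DESeq2 called 78 lower and 1 higher (background 15.4% lower). The median change was -0.41 on the log2(signal + 1) scale, while all tested regions shifted by 0.15. Both December libraries lay below both October libraries for 85 of the 121, against 19.8% of all tested regions. Among the 35, the median December signal was 52.4% of October and the median December RNA 15.0% of October. Without October replicate 2 the count was 15, without October replicate 3 it was 22 (1 of them higher), without December replicate 2 it was 20, and without either January library it was 59 (56 lower and 3 higher). In those last fits all regions gave 1031 and 992 lower and 4527 and 4425 higher, without January replicate 2 and 3 in turn. With library medians aligned it was 69, of which 68 were lower, and over all regions the split moved from 691 higher and 392 lower to 1811 higher and 1712 lower. Without a filter on low signal, 3 genes were called.

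The genes described next had the largest dips of the mark in December against the mean of October and January. They were picked on the same libraries as those tested, so their calls are a description. PRUPE_ppa008797mg (scaffold 1, 7495640 to 7497674) had a signal of 52.2 and 49.2 in October, 0.151 and 1.13 in December and 2.38 and 5.37 in January, and RNA of 69.02, 60.4 and 65.96 TPM in the October libraries, 7.47, 5.23 and 5.98 TPM in December and 13.9, 16.3 and 16.96 TPM in January. Both measures were high in October only. Signals of 0.151 and 0.183 in this paragraph are the lowest value of their library. PRUPE_ppa004414mg (scaffold 1, 34648417 to 34650567) had a signal of 20.3 and 27.8 in October, 0.151 and 2.49 in December and 14.4 and 7.04 in January, PRUPE_ppa001648mg (scaffold 8, 21113600 to 21117430) of 43.7 and 40.2 in October, 14.2 and 10.2 in December and 32.3 and 37.8 in January, and PRUPE_ppa003412mg (scaffold 10, 606415 to 609997) of 1.83 and 19.4 in October, 2.72 and 9.74 in December and 43.5 and 41.7 in January. PRUPE_ppa008797mg passed the filter on low signal through its October libraries alone, so its fall is given as a description. In all, 3 of the 121 tested genes passed that way and it alone of the 3 was called, and without them 34 of 118 were lower in December. PRUPE_ppa004414mg and PRUPE_ppa003412mg reached a signal of 10 in October and January libraries but in no December library. Their dips are therefore a description too, and PRUPE_ppa004414mg is still among the 34. How many of the 34 had no December library at 10 was not counted. The fall from October was called at PRUPE_ppa008797mg, PRUPE_ppa004414mg and PRUPE_ppa001648mg (limma adjusted p 0.00633, 0.0291 and 0.0135, in that order). For PRUPE_ppa004414mg it was not called without October replicate 2 (0.203) or 3 (0.133) or December replicate 2 (0.0609), nor for PRUPE_ppa001648mg without October replicate 2 (0.0937). Without either October library PRUPE_ppa008797mg fell under the filter, and without a filter on low signal none of the 3 was called (0.0878, 0.1804 and 0.144, limma). In PRUPE_ppa003412mg 1 October library was as low as December, and no fall was called there (limma adjusted p 0.849). At the other end, PRUPE_ppa008019mg had 0.183 and 24.4 in October, 18.7 and 23.3 in December and 42.97 and 35.0 in January and PRUPE_ppa015651mg 0.183 and 19.7 in October, 14.2 and 10.1 in December and 4.23 and 7.78 in January, each with 1 October library near 0.

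From December to January the mark rose at 4 of the 121 genes and fell at 0 (limma, Benjamini-Hochberg, background 0.436% higher and 1.3% lower). These are the same 4 genes whose mark had both fallen and risen again. PRUPE_ppa018757mg (scaffold 5, 18241773 to 18242943) had a signal of 111 and 111 in October, 65.4 and 77.4 in December and 211 and 182 in January, with RNA of 19.1, 16.2 and 21.7 TPM in the October libraries, 6.54, 6.08 and 3.80 TPM in December and 40.1, 38.2 and 32.01 TPM in January. In both measures January exceeded October. PRUPE_ppa008223mg (scaffold 7, 18355620 to 18360050) had a signal of 141 and 121 in October, 72.5 and 73.5 in December and 174 and 161 in January, with RNA of 38.4, 36.2 and 34.4 TPM in the October libraries, 7.29, 9.69 and 6.83 TPM in December and 65.5, 58.8 and 65.4 TPM in January, and again both were highest in January. PRUPE_ppa001841mg (scaffold 6, 2711797 to 2715832) had a signal of 276 and 254 in October, 130.2 and 148 in December and 233 and 197 in January, with RNA of 91.5, 85.6 and 85.4 TPM in the October libraries, 17.4, 20.7 and 19.01 TPM in December and 54.5, 56.7 and 44.7 TPM in January, both between the other dates in January. PRUPE_ppa006994mg (scaffold 3, 21629970 to 21632406) had a signal of 187 and 185 in October, 109 and 123 in December and 209 and 176 in January, with RNA of 23.3, 24.8 and 25.1 TPM in the October libraries, 4.84, 4.84 and 3.19 TPM in December and 20.6, 25.3 and 21.5 TPM in January, and January and October overlapped in both.

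In that order the 4 genes changed by -0.63, -0.83, -0.93 and -0.68 log2 units to December (SE 0.17, 0.17, 0.14 and 0.15) and by 1.45, 1.19, 0.62 and 0.73 to January (the same SEs). The limma adjusted p (Benjamini-Hochberg) was 0.0379, 0.008403, 0.00169 and 0.0147 for the fall and 6.31e-04, 0.001897, 0.0379 and 0.0218 for the rise. All tested regions shifted by 0.15 and -0.11 over the same intervals, so relative to other regions both steps are larger than these values. Some of the calls depended on the setting or on 1 library. With edgeR at the deposited scaling the fall of PRUPE_ppa018757mg (0.0503) and the rise of PRUPE_ppa001841mg (0.0696) were not called, and with a pseudocount of 0.1 that rise was not either (0.0538). Without a filter on low signal none of the 4 falls was called (limma adjusted p 0.0612 to 0.132). Without October replicate 2 the falls of PRUPE_ppa018757mg, PRUPE_ppa008223mg and PRUPE_ppa006994mg were not called (limma adjusted p 0.249, 0.149 and 0.141). Without October replicate 3 those of PRUPE_ppa018757mg and PRUPE_ppa006994mg were not called (0.137 and 0.0661), without December replicate 2 likewise (0.256 and 0.134), and without December replicate 3 that of PRUPE_ppa018757mg (0.0706). Without December replicate 2 the rises of PRUPE_ppa001841mg and PRUPE_ppa006994mg were not called (0.215 and 0.118), and without December replicate 3 that of PRUPE_ppa001841mg was not (0.0806). The count of 4 became 13 without January replicate 2, of which 9 were higher and 4 lower (127 and 3770 over all regions), and 8 without either October library. With library medians aligned 18 were higher and 0 lower, and over all regions the split moved from 67 higher and 199 lower to 450 higher and 451 lower. Without a filter on low signal 0 genes were called in limma, over a table in which 1985 regions had an unadjusted p under 0.05, and edgeR with TMM called 15 higher (background 2.43%) and DESeq2 31 (background 6.31%).

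**Figure D4:**
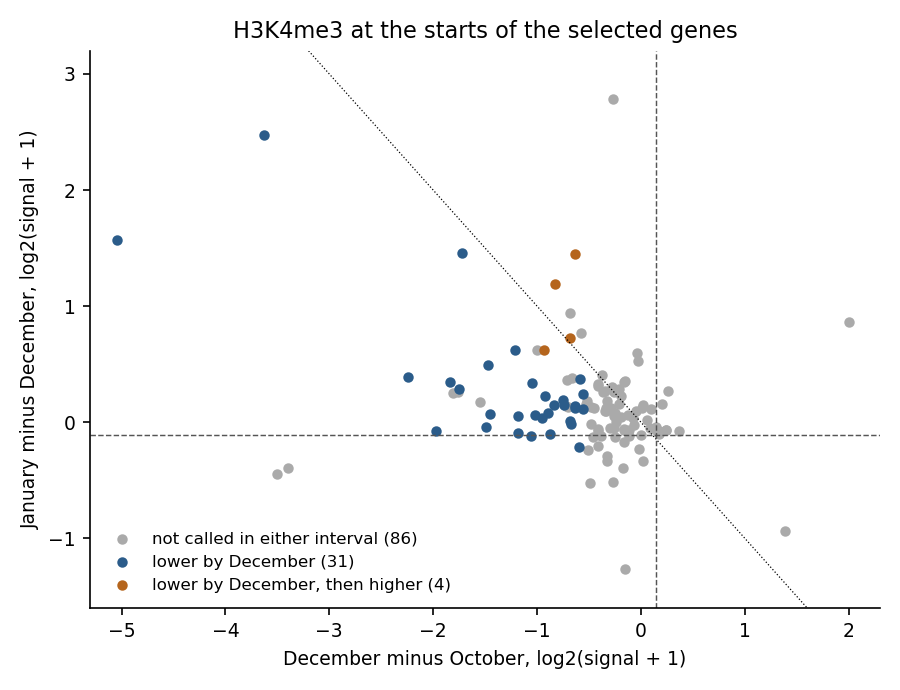
Change of H3K4me3 from October to December against the change from December to January for the 121 tested genes, in log2(signal + 1), with the median of all tested regions as dashed lines and equal and opposite changes as a dotted line. Of the 35 genes called lower by December, 4 were called higher again by January, and most points lie left of the dashed vertical line and below the dotted line.

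Set against the mean of October and January, the December mark was lower at 8 of the 121 genes and higher at 0 (limma, Benjamini-Hochberg, background 0.163% lower and 0.143% higher). The median was -0.26 log2 units, against 0.14 over all regions. The 8 were the 4 genes above with PRUPE_ppa008069mg, PRUPE_ppa010426mg, PRUPE_ppa001648mg and PRUPE_ppa010013mg. PRUPE_ppa008069mg (scaffold 1, 33136993 to 33139553) had a signal of 159 and 154 in October, 60.3 and 51.4 in December and 86.2 and 71.5 in January, with RNA of 278, 244 and 267 TPM in the October libraries, 22.6, 22.4 and 21.3 TPM in December and 59.0, 66.7 and 74.9 TPM in January. PRUPE_ppa010013mg (scaffold 5, 12997615 to 13001407), outside the 6 named by adjusted p, had 107 and 100.2 in October, 43.95 and 43.95 in December and 70.5 and 65.9 in January. PRUPE_ppa010426mg had 244 and 249 in October, 95.5 and 83.4 in December and 88.7 and 98.7 in January: its January libraries overlapped December, so the call rests on the October signal. The count was 5 without December replicate 2 and 43 without January replicate 2. Of the 43, 39 were lower and 4 higher (222 and 5284 over all regions). With edgeR at the deposited scaling the calls ended for 6 of the 8, all but PRUPE_ppa018757mg and PRUPE_ppa008223mg (adjusted p 0.0582 to 0.1897). With a pseudocount of 0.1 they ended for PRUPE_ppa006994mg, PRUPE_ppa010013mg, PRUPE_ppa010426mg and PRUPE_ppa001648mg (0.0521 to 0.0778, limma), with edgeR and TMM for PRUPE_ppa001648mg (0.05504), and without a filter on low signal for all 8 (0.146 to 0.401, limma). Adjusted p passed 0.05 for PRUPE_ppa008069mg without December replicate 3 (0.0796), for PRUPE_ppa010426mg likewise (0.244), and for PRUPE_ppa001648mg without December replicate 3 (0.137) or January replicate 3 (0.1003), all in limma with Benjamini-Hochberg adjustment. For PRUPE_ppa010013mg it was 0.122 without December replicate 2, 0.129 without December replicate 3 and 0.0643 without January replicate 3. For PRUPE_ppa001841mg and PRUPE_ppa006994mg it was 0.09099 and 0.208 without December replicate 2.

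**Figure D5:**
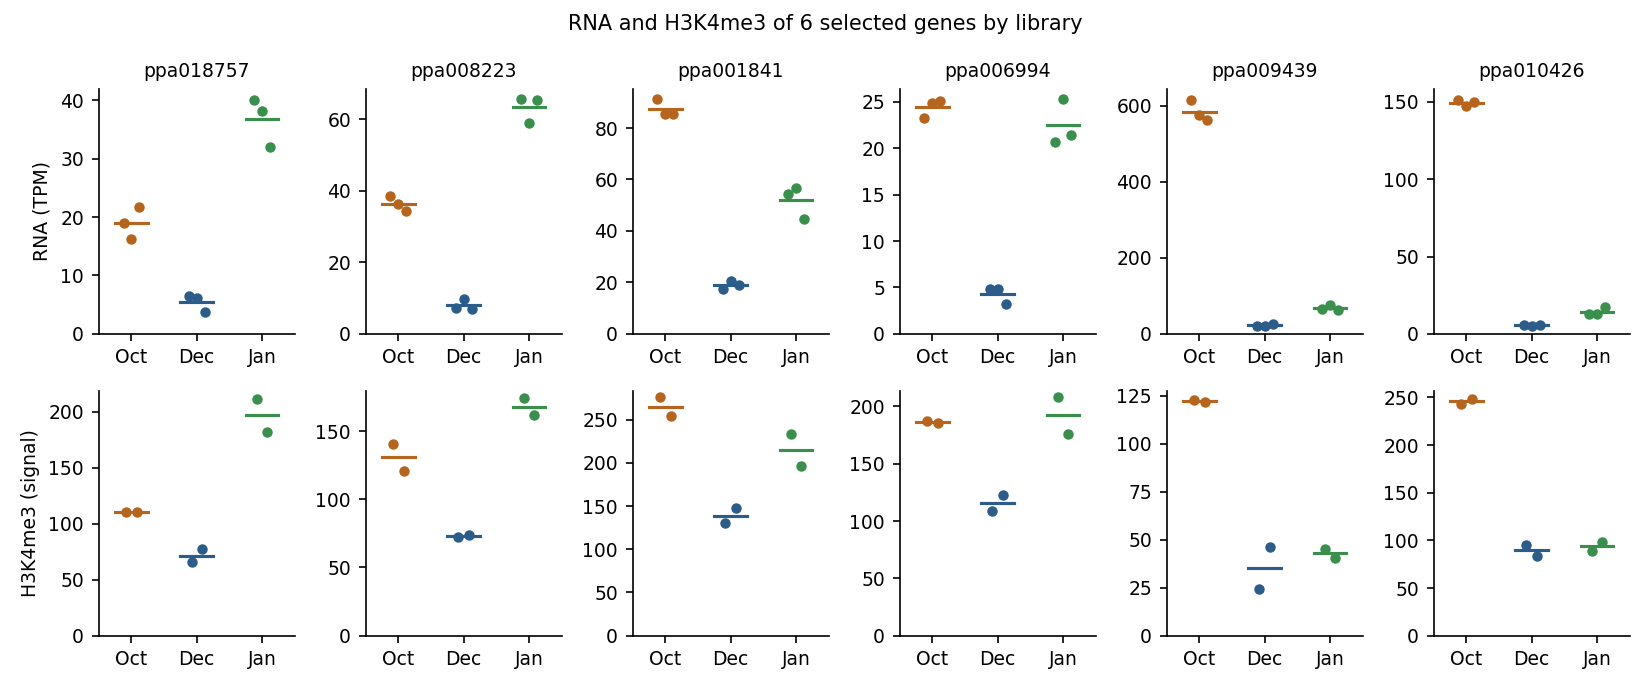
RNA in TPM (upper row, 3 libraries per date) and H3K4me3 signal (lower row, 2 libraries per date) of 6 genes, picked after the values were seen, with points for libraries and bars for means, all axes from 0. The first 4 genes are those whose mark fell and rose again, and in PRUPE_ppa009439mg and PRUPE_ppa010426mg both measures stayed low in January.

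In January the mark was below October at 32 of the 121 genes and above it at 4 (limma, Benjamini-Hochberg, background 9.49% lower and 5.68% higher). The median was -0.31 log2 units, against 0.05 over all regions. Of the 35 genes that fell by December, 25 (71.4%) were also below October in January. Over all PRUPE genes at 5 TPM or more this held for 259 of 312 such windows (83.0%), so the share among the selected genes was not above the background. The median January signal of the 35 was 60.7% of October while their median January RNA was 42.9%. The January mean of the mark was above December for 28 of the 35, although only the 4 genes above were called. PRUPE_ppa009439mg, among the least recovered in RNA, had a signal of 123 and 122 in October, 24.3 and 46.2 in December and 45.2 and 40.6 in January. Its December and January libraries overlapped and both dates were lower than October (limma adjusted p 0.00150 and 0.00173). The 4 genes above October were PRUPE_ppa018757mg, PRUPE_ppa008019mg, PRUPE_ppa005137mg and PRUPE_ppa002583mg. The RNA of PRUPE_ppa018757mg was also higher in January than October, and that of the other 3 was not called (limma adjusted p 0.0823, 0.306 and 0.589). At PRUPE_ppa008019mg the mark in October replicate 2 stood at the lowest value of that library, so the size of its change is uncertain. The count of 36 fell to 20 without October replicate 2 and to 19 without October replicate 3. Without January replicate 3 it was 40, of which 28 were lower and 12 higher, and over all regions the split turned to 4528 higher and 1360 lower. With library medians aligned it was 56, and over all regions the split moved from 872 higher and 1458 lower to 2890 higher and 2677 lower.

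Genes whose RNA returned less had a lower January mark relative to October; the difference was not tested. Among the 38 tested genes with January RNA under 50% of October, 18 had a lower mark in January than October and 0 a higher one, and the median January signal was 63.0% of October. Among the 83 at 50% or more, 14 were lower and 4 higher, with a median of 85.2%. The December medians differed less, 64.3% and 76.9% of October. A lower mark was already called in December at 18 of the 38 and at 17 of the 83. Across the 121 genes, the RNA change and the H3K4me3 change had a Pearson r of 0.37 and a Spearman rho of 0.41 from October to December, 0.21 and 0.18 from December to January, and 0.45 and 0.49 from October to January. These describe genes from shared libraries and are not independent replicates. The rule limits the RNA fall and the RNA rise to at least 1 log2 unit and sets no limit on October to January. The correlations are therefore not comparable between the intervals.

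Other groups of genes at 5 TPM or more are set beside these, without a test of the difference. The 1021 genes that fell by December and stayed low had 710 tested windows, of which 107 were lower in December than October, 2 higher in January than December and 304 lower in January than October. Their median change was -0.34 log2 units to December, -0.22 to January and -0.59 over both, against -0.41, 0.10 and -0.31 for the genes with a December minimum. The 72 genes that peaked in December had 46 tested windows, with 13 higher and 0 lower in December and 4 lower in January than December. The first group shares the October and December libraries and the limit on the fall with the selected genes.

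The mark did not move with RNA at every gene. PRUPE_ppa011342mg, whose December RNA was 35.8% of October, had a signal of 412 and 436 in October, 417 and 433 in December and 419.9 and 367 in January, with all dates overlapping (limma adjusted p 0.9898 for December against October). PRUPE_ppa010099mg, with December RNA at 9.03% of October, had 54.9 and 52.7 in October, 48.5 and 50.3 in December and 52.4 and 51.1 in January (adjusted p 0.757, limma). Both December libraries of PRUPE_ppa010785mg were below October, with a signal of 319.8 and 299.7 in October, 281 and 262 in December and 321 and 314 in January, and no change was called (limma adjusted p 0.305). PRUPE_ppa013711mg, which overshot in RNA, had 96.8 and 103 in October, 95.2 and 100.4 in December and 143 and 139 in January, with January above the other dates (limma adjusted p 0.0545 against October). PRUPE_ppa012723mg overshot in RNA while its mark, with 160.0 and 161 in October, 115 and 98.3 in December and 137 and 139.8 in January, stayed below October. PRUPE_ppa019992mg and PRUPE_ppa008080mg, at 162 and 97.6 TPM in October, had signals of at most 0.185 and 1.06 in any library, too low to test. The build behind the coordinates is not given, so a window may miss a gene's start in sweet cherry.

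The 27 genes without a window of their own lay in 25 longer regions of 2429 to 7273 bp, whose signal cannot be divided among their genes. Of these regions 23 were tested: 3 were lower and 0 higher in December than October, 0 were higher in January than December, and 6 were lower in January than October (limma, Benjamini-Hochberg). Over all regions tested the shares were 2.55% lower, 4.5% higher, 0.436% higher and 9.49% lower in that order. The longest region, on scaffold 3 from 17443913 to 17451186, held PRUPE_ppa013980mg and PRUPE_ppa013990mg with other genes. Its signal was 929.9 and 966 in October, 588 and 659 in December and 624 and 657 in January. It fell by December and did not return (change -0.61 and then 0.04 log2 units, limma adjusted p 0.00686 and 0.938), whereas the RNA of both genes rose again.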

How the data were processed

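RNA levels are TPM deposited by the authors, which sum to 1000000 per library, and the depth behind them is unknown. For RNA the submitters' processing notes list TopHat and Picard, without versions. H3K4me3 values are a normalised signal per region as deposited by the authors, called TMM per the file headers, and for these the notes list DiffBind, Bowtie2, FastQC, Picard and Trimmomatic. The program behind the TPM was not given in the sources used here, nor was the build. All H3K4me3 values (100% within 0.01) were whole multiples of 1 step per library, which gave 14216613 to 28126160 recovered reads per library. No library held a value under 1 step, and 25.9% to 32.8% of regions stood at that lowest value. Subtraction of a control was not given in the sources used here either. The 6 H3 and 6 input libraries were not analysed here.

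The selected genes, the groups beside them and the tests were chosen with earlier results of these data known. limma 3.58.1 under R 4.3.3, with an intensity trend, was run on log2(value + 1), for 18384 genes with at least 1 TPM in 3 libraries and 15360 regions whose signal reached 10 in 2 libraries, in 1 fit per assay with date as the factor. A count test had been planned for H3K4me3 if its values were counts. Tests were two-sided, with Benjamini-Hochberg adjustment over all features and calls at an adjusted p under 0.05. edgeR 4.0.16 and DESeq2 1.42.0 (local dispersion trend) on recovered reads were alternatives. The limma test was tried on simulated data with known changes in December, and edgeR and DESeq2 were not tried in this way. Windows of 2000 bp (500 bp before to 1500 bp into the gene) were matched to genes by position. Starts are as the RNA tables give them, counted from 0, and ends from 1. Named genes are those with the highest means, the largest smaller step, the extremes of January against October and of the H3K4me3 dip, called dips, neighbouring pairs and the genes nearest each limit.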

Additional observations from a re-analysis of the deposited data

How the results depend on the processing

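With a pseudocount of 0.1 the rule chose 282 genes in place of 187, all 187 among them, and leaving out RNA libraries gave 180 to 233. January against October in RNA stayed at 92 to 107 called genes (103) when libraries were left out, and at 86 to 108 under the other settings. The H3K4me3 counts moved with the scaling, the test, the filter on low signal and single libraries. For December against October (35) DESeq2 gave 79, edgeR with TMM 67, aligned medians 69 and no filter 3, and leaving out libraries 15 to 59. For January against December (4) the values in that order were 31, 15, 18 and 0, and 4 to 13. For January against October (36) DESeq2 gave 65, aligned medians 56, no filter 17, and leaving out libraries 19 to 43. For December against the mean of the other dates (8) DESeq2 gave 67, edgeR with TMM 38, edgeR with the deposited scaling 2, aligned medians 44, no filter 0, a pseudocount of 0.1 4, and leaving out libraries 5 to 43. The cause was not tested. Where 0 genes passed without the filter, 2191 regions had an unadjusted limma p under 0.05 in the last contrast. Where leaving out a library left 1 per date, it was assumed to vary like the other dates. Of 383 alternatives for 29 results on single genes, 316 kept the call, 67 lost it and 0 reversed.

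No pairing of the RNA samples by replicate number was visible: correlations of same-numbered deviations were -0.09 to 0.11. With 3 libraries per date, whether same-numbered RNA samples share a source cannot be told from these values. In H3K4me3 they were 0.53 for October and December, -0.07 for October and January and -0.10 for December and January. With 2 libraries per date the deviations mirror each other, so whether the H3K4me3 samples are paired could not be settled. With the replicate number as a block the counts were 108 in RNA and, for H3K4me3 in the order above, 36, 7, 36 and 12. Depth behind TPM is unknown, and with 2 H3K4me3 libraries per date small changes of the mark were not detectable.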

Other observations

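Identifiers that begin with EPlPPEG were outside the rule. Of the 174 that reached 5 TPM, 11 met the same limits (6.32%, against 1.2% of PRUPE identifiers). The December libraries lay below all others in 2 of the 11.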
